A study of Mus musculus with 2 samples.

Results

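The circadian clock genes and their direct output genes were described across whole mouse lungs taken 14 days after bleomycin, which damages the lung lining and leads to fibrosis. The 10 genes were listed by name: Clock and Npas2 of the positive limb, Per1, Per2, Per3, Cry1, Nr1d1 and Nr1d2 of the negative limb, and the output genes Dbp and Nfil3. A total of 11 probes carried a RefSeq accession of one of them, 2 for Dbp and 1 for each of the other genes. Of the 10 genes, 9 were measured on both arrays, among 15495 genes measured in all.

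Each group was 1 one-colour array. The control lung came from C57BL6/N and the other from a C57BL6/N transgenic that overexpresses heat shock protein 27 (HSP27), and both were labelled male, 6 weeks old, and given bleomycin at 1.25 mg/kg. No array of lung without bleomycin was analysed here. The labels name neither the promoter of the transgene nor the number of animals behind a sample, and they give no hour of tissue collection. Whether the lungs were taken at different hours was not tested, since no array of a known hour was analysed.

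The clock is a loop of transcription factors that takes about a day to run. CLOCK, or its relative NPAS2, pairs with BMAL1 and binds E-box elements, which switches on the Per and Cry genes, Nr1d1, Nr1d2 and Dbp. PER and CRY proteins block that pair, while NR1D1 and NR1D2 repress genes with ROR elements, among them those for BMAL1, NPAS2 and NFIL3. DBP activates genes through D-box elements, and NFIL3 represses genes through those same elements. In the mouse lung, levels of the E-box targets and of the ROR element genes peak at about opposite times of day, and the clock of bronchiolar club cells is known for timing the entry of neutrophils.

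The 2 arrays were close in brightness. The 75th percentile of signal was 1287 for C57BL6/N and 1426 for the transgenic lung, and 69.3% and 69.4% of 39429 probes were well above background. Lung markers were bright on both, with the surfactant gene Sftpc at signals of 448223 and 376982 and the club cell gene Scgb1a1 at 369700 and 359014. After scaling, 9 of 10 lung markers were lower in the transgenic lung, beside 54% of all measured genes. Their median log2 difference was -0.34, and the other marker, Foxj1, was higher (0.56). Hspb1, the mouse gene for HSP27, read 41040 and 53554, a log2 difference of 0.24 after scaling to the 75th percentile, and whether this mouse probe reads the transgene is unknown. The C57BL6/N array went against its male label. Xist, the RNA of the inactive X chromosome, read 521 and 330 at its 2 probes there. It did not exceed background in the transgenic lung. Y-linked genes were measured on both arrays, Ddx3y at 508 and 2437, Eif2s3y at 800 and 3338 and Uty at 17.1 and 72.5. Ddx3y was thus higher in the transgenic lung by 2.11 on the log2 scale. The Y-linked Kdm5d exceeded background in the transgenic lung alone. The C57BL6/N array thus held Xist and Y-linked RNA together, and the source of this was not tested. Every difference below stands beside that mismatch, and no result could be given without the array concerned, since each group had 1 array.

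Most of the clock genes read nearly alike in both lungs, and the members at the edges were Per3, lower in the transgenic lung, and Nfil3, higher there. Differences are given on the log2 scale as transgenic minus C57BL6/N, each signal scaled to the 75th percentile of its own array. Of 9 measured members, 1 was higher by 1.5-fold or more and 1 was lower by as much, against 10.2% and 8.31% of all measured genes. At 2-fold, 0 members were higher and 1 was lower, against 3.81% and 1.87% of all genes. The 1.5-fold counts are close to what 9 genes at the background rate would give, so they set the clock genes apart from other genes in neither direction. The 2-fold count is 1 gene, Per3, and nothing is read from it for the group. The median difference of the members was -0.07, beside -0.04 over all measured genes. Without replicates the groups could not be tested against each other, and the measured error was technical alone. It came from probes that the array carries in 10 copies, in 3 groups of 103 or 104 probes. Single spots at the same place gave log2 differences with an SD of 0.15 where signals were lowest, 0.06 at middle signals and 0.05 at the highest. This technical SD is the scatter of spots of the same probe. It leaves out error between the arrays from RNA preparation, labelling or hybridisation, and differences between animals.

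**Figure D1:**
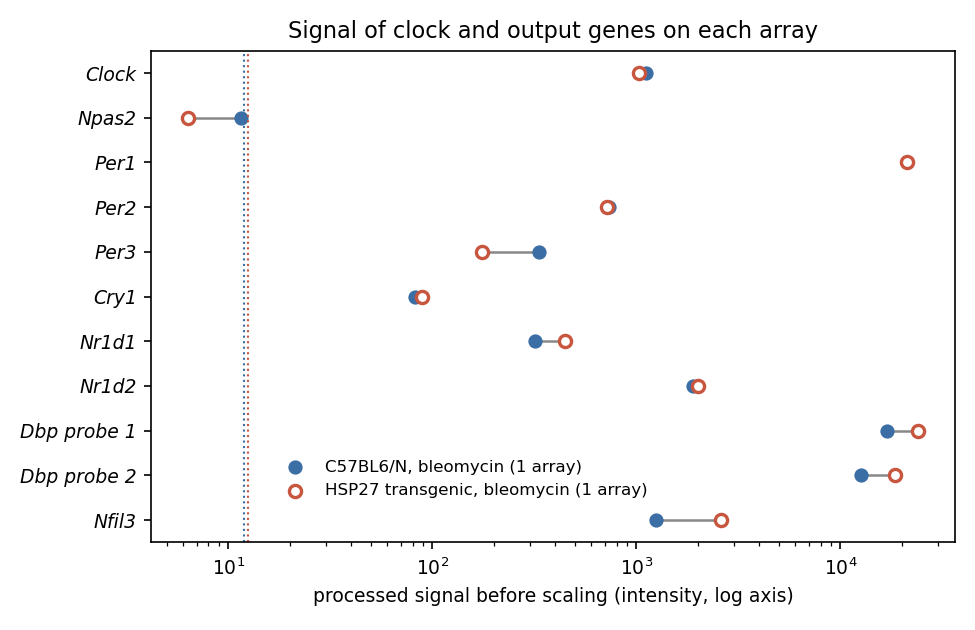
Processed signal of each probe of the 10 clock and output genes (log axis) on the C57BL6/N array (filled) and the transgenic array (open), 1 array each and before scaling; dotted lines mark the lowest signal well above background, 11.9 and 12.5. Per3 lies further left on the transgenic array (175 against 333), Nfil3 further right (2592 against 1254), and Npas2 lies below the dotted line of each array.

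In the positive limb, one of the partners of BMAL1 was measured and the other was too dim. Clock, which encodes the DNA-binding partner that also acetylates histones, read 1117 in C57BL6/N and 1034 in the transgenic lung. After scaling it was lower by a log2 difference of -0.26 (1.2-fold), with a technical SD of 0.06. Npas2, which can stand in for Clock, read 11.6 and 6.34, both under the lowest signals called well above background (11.9 and 12.5), and so no fold is given. BMAL1 itself, whose gene the annotation calls Arntl, read 241 and 255 and differed by -0.07. Neither Clock nor Arntl reached 1.5-fold.

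The Period genes, whose proteins carry the negative feedback into the nucleus, did not share one difference. Per1, which also responds quickly to hormones and stress signals, was bright at 21093 and 21175 and differed by -0.14 (technical SD 0.05). Per2, needed for a stable rhythm, read 738 and 720 and differed by -0.18 (technical SD 0.06). Per3, the Period gene that the mouse clock can most easily do without, read 333 in C57BL6/N and 175 in the transgenic lung. Its scaled difference was -1.08, or 2.11-fold lower, which was 7.4 times the technical SD of 0.15 for dim probes. Among all measured genes, 1.43% had a lower difference than Per3. Per1 lay above Per3 by 0.94 in difference and Per2 by 0.90, so the lower reading of the Per3 probe was not matched at the other Period probes. Per3 rested on 1 probe in 1 spot per array, and with normexp, another background correction, its difference was -0.75, past 1.5-fold and short of 2-fold.

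The other genes of the negative limb differed by less than 1.5-fold. Cry1, whose protein is the strong repressor of CLOCK and BMAL1, was dim at 82 and 89.3 and differed by -0.02, less than its technical SD of 0.15. Nr1d1, the nuclear receptor REV-ERB alpha, read 318 and 446 and was higher by 0.34 (1.26-fold, technical SD 0.15). Nr1d2, its close relative REV-ERB beta, read 1904 and 2006 and differed by -0.07 (technical SD 0.06). Nr1d1 thus lay above Nr1d2 by 0.41 in difference, although the pair usually rise and fall together over the day. Nr1d1 lay above Arntl, which it represses, by 0.40.

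Of the output genes, both were higher in the transgenic lung. Dbp, the D-box activator with one of the widest daily swings of any transcript, was measured by 2 probes. The first read 16897 and 24036 and the second 12602 and 18542, which gave differences of 0.36 and 0.41 and a mean of 0.38 (1.31-fold). The probes lay 1.28-fold and 1.33-fold apart between arrays, so that both had one direction and nearly one size. The mean was 7.7 times the technical SD of 0.05, a multiple as large as that of Per3 (7.4). Clock, at -0.26, stood at 4.6 times its technical SD. By this measure Per3 was therefore not set apart from members within 1.5-fold. Nfil3, the D-box repressor, which also steers the growth of several immune cell types, read 1254 and 2592. Its difference of 0.90 (1.87-fold) was 15.9 times the technical SD of 0.06, and 4.7% of all genes had a difference as high or higher. Like Per3, Nfil3 rested on 1 probe in 1 spot per array. The difference of Dbp minus that of Nfil3 was -0.51, the activator and the repressor of D-box genes both being higher.

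**Figure D2:**
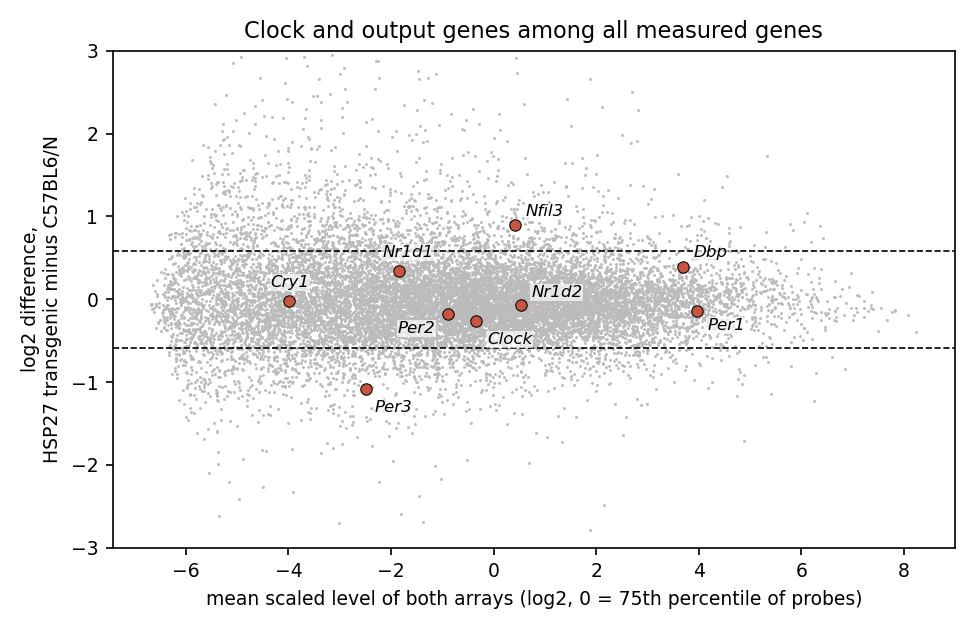
Each grey point is 1 of 15495 genes, placed by its mean scaled level on both arrays (x, log2) and its difference (y, log2, transgenic minus C57BL6/N); the 9 measured clock and output genes are named, dashed lines mark 1.5-fold, and 50 genes lie beyond the y axis. Per3 (-1.08) and Nfil3 (0.90) lie outside the dashed lines and the other 7 lie between them.

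The E-box targets among the members were set against Clock and the ROR element genes Npas2 and Nfil3, called here the opposite group. Per1, Per2, Per3, Nr1d1, Nr1d2 and Dbp are E-box targets (Cry1, which holds both kinds of element, was left out), and of these 6 genes 2 had a difference above 0 and 4 below 0. Their median was -0.11 and their differences spanned 1.47, from Per3 at -1.08 to Dbp at 0.38. Clock and Nfil3 were the measured members of the opposite group, with a median of 0.32 from values of -0.26 and 0.90. Clock is at most weakly repressed through ROR elements, which limits this contrast. The E-box median lay below that of the opposite group by 0.43 (-0.43), and this sign rested on Nfil3, since against Clock alone the E-box median was higher by 0.15. With the dim probe of Npas2 let in, the contrast was 0.15 as well. With Arntl, a ROR element gene outside the members, added to the opposite group, it was -0.04, and with Cry1 added to the E-box genes -0.39. The E-box genes therefore showed no common direction between these lungs, and Clock and Nfil3 had opposite ones. Whether the 6 E-box genes peak at the same hour was not examined, so nothing on the hour of collection is read from their directions.

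The stretches of DNA before the start sites of Per3 and Nfil3, the members with the widest differences, are shown with that of Per1, which differed little, because each holds an element of the clock. RefSeq windows (build GRCm38.p6) were found for 9 of the members, all but Per2, and the 250 bases before each start were searched on both strands. The words were CACGTG (E-box), CACGTT (the weaker form of the E-box), TTATGTAA or TTACGTAA (D-box), and TAGGTCA or TGGGTCA (core of the ROR element). The E-box words share their first letters, but no matches overlapped in these windows. Matches lie in capitals, 2 D-box words in Per3, 1 ROR core on the opposite strand in Nfil3 and 1 E-box in the window of the first Per1 start.
Per3, chr4:151044666-151044915, minus strand: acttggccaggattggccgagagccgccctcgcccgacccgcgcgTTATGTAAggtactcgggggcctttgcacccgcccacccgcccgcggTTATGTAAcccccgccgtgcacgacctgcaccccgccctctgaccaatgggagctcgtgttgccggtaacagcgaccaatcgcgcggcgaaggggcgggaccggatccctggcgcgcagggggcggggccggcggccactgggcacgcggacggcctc
Nfil3, chr13:52981040-52981289, minus strand: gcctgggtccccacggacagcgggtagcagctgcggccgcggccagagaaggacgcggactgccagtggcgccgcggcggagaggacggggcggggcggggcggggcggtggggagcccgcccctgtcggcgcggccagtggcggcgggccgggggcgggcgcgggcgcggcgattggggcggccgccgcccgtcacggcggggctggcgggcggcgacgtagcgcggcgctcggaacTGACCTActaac
Per1, chr11:69098699-69098948, plus strand: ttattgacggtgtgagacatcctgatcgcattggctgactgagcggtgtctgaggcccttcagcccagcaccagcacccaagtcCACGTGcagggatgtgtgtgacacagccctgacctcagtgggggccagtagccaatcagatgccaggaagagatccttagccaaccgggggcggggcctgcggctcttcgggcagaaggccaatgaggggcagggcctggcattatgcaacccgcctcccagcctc

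The Per3 words began 205 and 158 bases before the start, the Nfil3 word 12 bases and the Per1 word 166 bases before it. Cry1 held an E-box at 60 bases and the weaker form at 79 bases before its start, and Nr1d1 the weaker form at 28 bases. No word was found in the windows of Clock, Npas2, Nr1d2 and Dbp. Among 32851 windows of all genes, 0.931% held a D-box word, 5.38% a ROR core, 6.02% the E-box and 3.85% its weaker form. D-box words were the rarest of these, being also the longest words searched, and Per3 held a pair of them. Of 109 measured genes with a D-box word, Per3 among them, 10 (9.17%) were higher by 1.5-fold or more and 13 (11.9%) were lower by as much. The shares of all genes were 10.2% and 8.31%. The median of the 109 genes was -0.09, and the part of the D-box words in the Per3 difference was not tested. For 1119 measured genes with an E-box the median was -0.04, with 6.97% higher and 6.97% lower, and for 674 genes with a ROR core it was -0.04, with 8.75% higher and 7.42% lower. A match of letters is not a bound site.

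The rest of the core loop lay within 1.5-fold, with 0 of 10 measured genes past it in each direction and a median of -0.13. Beside Arntl, the repressor Cry2 read 8673 and 8457 (-0.18). The activator of ROR elements Rora read 1297 and 1018 (-0.50). Rorb was near background at 15.7 and 20.6 (0.24). The E-box repressors went apart: Bhlhe40, which also responds to hypoxia and cytokines, read 1877 and 2803 (0.43), Bhlhe41 67.2 and 73.5 (-0.02, its probes at -0.27 and 0.24), and Ciart, a repressor of CLOCK and BMAL1, 262 and 214 (-0.44). Timeless and Tipin, partners in replication fork protection, were at -0.24 and -0.03.

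The wider clock machinery held few genes past 1.5-fold, at about the share of all genes downward and none upward. Across this list and those of kinases and ubiquitin ligases, cofactors and other outputs, 47 genes were measured, of which 0 were past 1.5-fold upward and 4 downward (10.2% and 8.31% of all genes), the median was -0.18, and 36 of 47 lay below 0, beside 54% of all genes. Under the alternatives the downward count ran from 2 to 7. Fbxw7, a ubiquitin ligase subunit that targets NR1D1 among many proteins, read 1096 and 753 (-0.69). Sirt1, a deacetylase that acts on BMAL1 and PER2, read 2902 and 2107 (-0.61), and Ep300, an acetyltransferase that joins CLOCK and BMAL1, 885 and 649 (-0.60). Fmo2, a flavin monooxygenase abundant in lung, read 49000 and 29556 (-0.88). The relatives of Dbp did not share its direction: Tef read 63321 and 57158 (-0.30) and Hlf 2096 and 1622 (-0.52). Of 17 measured genes in the list of other outputs, 7 lay above 0 and 10 below, with a median of -0.07. Usp2, a deubiquitinase, at 1272 and 1867 (0.41) and Nampt, the enzyme that limits NAD synthesis, at 1662 and 2614 (0.50) were among the former, and Wee1, a cell cycle kinase, at 1408 and 1429 (-0.13) and Hlf among the latter.

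**Figure D3:**
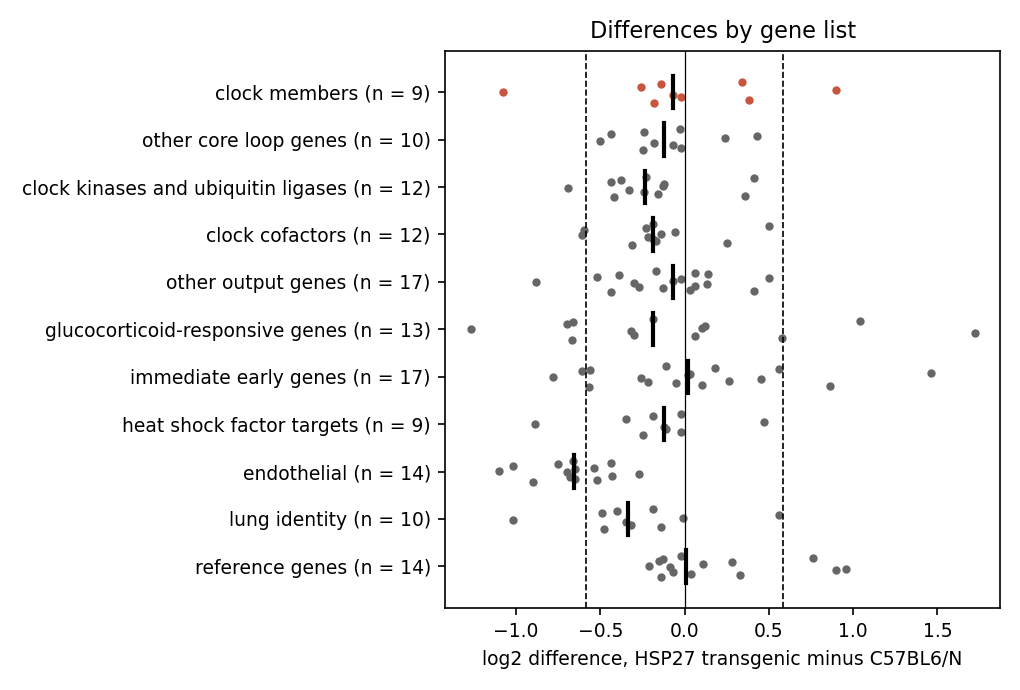
Log2 difference (x, transgenic minus C57BL6/N, 1 array each) of every measured gene of 11 lists; each point is a gene, black bars are list medians and dashed lines mark 1.5-fold. The clock members centre on -0.07 with Per3 and Nfil3 outside the lines, and the endothelial markers centre on -0.66.

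Signals that can reset or override clock genes were also compared. Glucocorticoids are adrenal hormones that induce Per1, and the list of their response genes also held their receptor, Nr3c1, and the enzyme gene Hsd11b1. Of 13 measured genes in this list, 2 were past 1.5-fold upward and 4 downward (10.2% and 8.31% of all genes), and the median was -0.19. The metallothionein genes Mt1 (1.04) and Mt2 (1.72), which respond to metals and inflammation too, were the higher ones. Zbtb16, a transcription factor strongly induced by these hormones, read 10257 and 4716 (-1.27), and Tsc22d3, the leucine zipper protein GILZ, 64997 and 44300 (-0.70). The other lower genes were Nr3c1 (-0.67) and Dusp1 (-0.66). Fkbp5, a hormone-induced chaperone of the receptor, lay just short of 1.5-fold at 4900 and 8123 (0.58). Of 17 immediate early genes, 2 were higher and 2 lower, with a median of 0.02. Junb was dim at 61.8 and 188 (1.46) and Egr2 read 1243 and 2498 (0.86), whereas Klf4 (-0.78) and Klf6 (-0.61), also made by endothelium, were lower. Of 9 heat shock factor and temperature-responsive genes, 1 was lower, Hsph1 at -0.89, and 0 were higher, with a median of -0.12. The shares of all genes given above apply to these lists too. The lists, chosen with earlier results of these data known, are too short for 1 to 4 genes to be read against them.

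Marker lists of other cells, chosen with earlier results of these data known, had medians further from 0 than the clock members (-0.07). These were 2.66 for cardiac muscle, 2.17 for adipose tissue, 3.24 for basal airway cells and -0.66 for endothelium. Per3 (-1.08) and Nfil3 (0.90) lay further from 0 than the endothelial median. The shares of all genes past 1.5-fold, 10.2% upward and 8.31% downward, stand beside each count here. Of 17 measured cardiac muscle markers, 13 were past 1.5-fold upward and 1 downward. Their summed signal, in units of the 75th percentile, was 10.4 in C57BL6/N and 43.4 in the transgenic lung. A further 6, Sln and Mb among them, exceeded background in the transgenic lung alone, and the share of all genes that did so was not counted. Of 7 adipose markers, 6 were higher and 0 lower, with sums of 2.73 and 31.5, and Adipoq, Plin1, Pck1 and Ucp1 exceeded background in the transgenic lung alone. All 7 basal airway cell markers were higher, with sums of 0.76 and 5.12, though the 2 probes of Trp63 lay apart at -0.23 and 2.22. Of 14 endothelial markers, 9 were lower and 0 higher, with sums of 254 and 160. In whole lung, the amount of a cell type or other tissue in the sample and its RNA per cell cannot be told apart. The part of these cells and tissues in the differences of Per3 and Nfil3 was not tested.

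**Figure D4:**
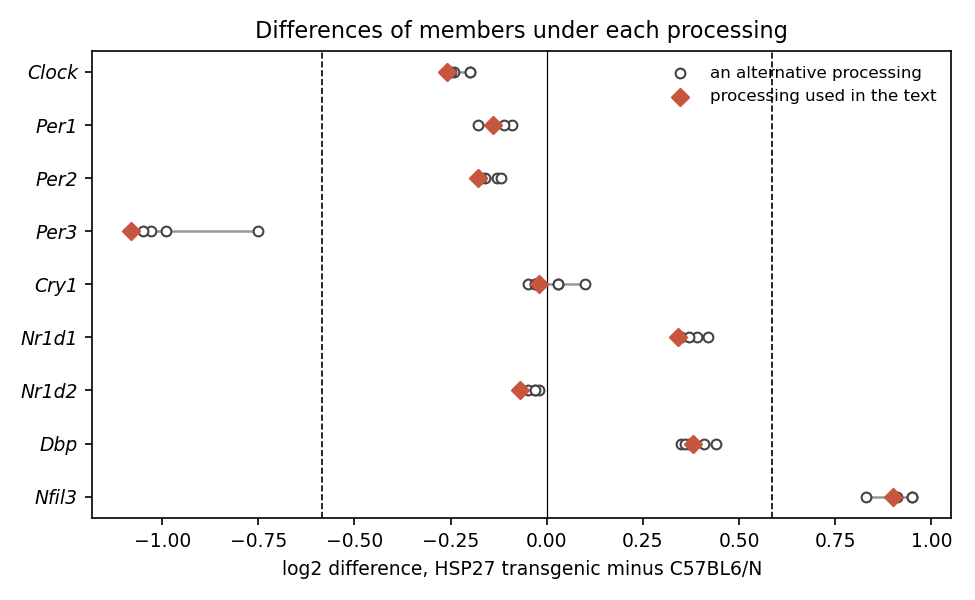
Log2 difference (x, transgenic minus C57BL6/N, 1 array each) of the 9 measured members under the processing used in the text (diamonds) and up to 9 alternatives (open circles); dashed lines mark 1.5-fold. Per3 runs from -1.08 to -0.75 and Nfil3 from 0.83 to 0.95, and no other member reaches the lines.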

How the data were processed

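Total RNA of 2 whole-lung samples was hybridised with Cy3 label, per the labels' protocols. Per the file headers, the deposited intensity of each spot came from Agilent Feature Extraction 11.5.1.1, on an array design of build mm9, with background subtracted and trends removed within the array. Both arrays share a slide and a scan. The deposited table of the series is an intensity too and equalled the processed signal within 0.1% at all 39030 probes with 1 spot.

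After control spots and outlying spots were dropped, log2 signals were scaled to each array's 75th percentile of 39429 non-control probes, and probes had to be called well above background on both arrays, in 50% or more of their spots, and not saturated. RefSeq accessions gave symbols for 27508 probes (table of GRCm38.p6), and a gene is the mean of its probes. With 1 array per group there was no test. The number of arrays limits the precision.

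The members, lists and alternatives were chosen with earlier results of these data known. Named genes were the members, Hspb1, Arntl and up to 2 genes per direction and list past 1.5-fold. The other named genes and the promoter words were chosen after their values were seen. The steps were tested on simulated data. Software was R 4.3.3 (limma 3.58.1) and Python 3.11.15 (pandas 2.3.3, numpy 2.4.6, matplotlib 3.10.9).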

Additional observations from a re-analysis of the deposited data

Results flagged for a closer look

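One gene of the clock lists lay outside the comparisons by gene because it was measured on 1 array alone. Arntl2, a relative of the gene for BMAL1, read 15 at one probe in the transgenic lung and 8.12, below the call for background, in C57BL6/N, a bound of at least 0.18 on the log2 scale (at least 1.13-fold higher). Its second probe was not well above background on either array, at 4.35 and 3.47. After scaling, the value of 15 was set against the dimmest signal that passed that call in C57BL6/N. That value was itself near the lowest signal called well above background in the transgenic lung (12.5). The bound of 0.18 is close to the technical SD of dim probes (0.15), so little is read from it.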

How the results depend on the processing

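Of 79 differences of single members under 9 alternatives, 73 moved by less than the technical SD of repeat spots and 6 by more, and Per3 and Nfil3 kept their direction in every alternative that measured them. Cry1, near 0, ran from -0.05 to 0.1 and changed sign. The count of members at least 1.5-fold higher was 1 in all 9, and the median of the members ran from -0.11 to -0.02. The count of members at least 1.5-fold lower was 2 without the filter on dim probes, which lets in Npas2, and 0 with the stricter filter, which drops Per3 and Cry1. The contrast of E-box genes against Clock and Nfil3 turned to 0.15 without the filter, through Npas2, and was -0.44 at the lowest. With Arntl in the opposite group, an alternative chosen after seeing the data, it was -0.04. Among all genes, the 1.5-fold counts upward and downward were 2526 and 2080 when dim probes were let in, 811 and 581 under the stricter filter, and 980 and 682 with normexp (offset 50, without 7 spots whose background reached their signal), against 1582 and 1287. Of the wider clock genes, of which 42 to 49 were measured, the downward count was 2 with normexp, median scaling and cyclic loess, 3 with quantile normalization, 6 with the stricter filter and 7 with the brightest probe, against 4, the upward count was 1 without the filter on dim probes, and 32 to 38 lay below 0. The median of all genes moved by at most 0.07. No paired analysis was possible because each group had 1 array. The dimmest members, Cry1 and Npas2, are limited by their signal over background.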
